A study of Mus musculus with 8 samples.

Results

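The genes described here encode palmitoyltransferases of the Zdhhc family, enzymes that attach the fatty acid palmitate to cysteines of other proteins. A list of 10 of them (Zdhhc2, Zdhhc3, Zdhhc4, Zdhhc5, Zdhhc6, Zdhhc7, Zdhhc13, Zdhhc14, Zdhhc17 and Zdhhc20) was followed, out of 24 Zdhhc genes and 19310 genes measured. Each gene was read from the array row that carried its symbol alone, and from the row with the highest mean over the 8 arrays where a gene had several. The list was chosen by family name with values of this same comparison in view, above all the difference of Zdhhc2 between the groups, and the rows were selected on their mean over all arrays. The differences of the 10 genes are therefore a description, with no p-value of their own.

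The tissue was epididymal white fat, a visceral depot, from male mice of the strain C57BL/6 between 12 and 15 weeks of age. The 2 groups were 4 wild-type samples and 4 samples labelled as Rev-erb alpha KO, a knockout of the nuclear receptor gene Nr1d1, and both ate a standard diet under cycles of 12 h of light and 12 h of darkness. Collection was at Zeitgeber time 10, that is 10 h after lights came on. The labels do not say whether each sample is 1 mouse or how the knockout was made, so the p-values measure only the spread between these samples. The Nr1d1 row read 9.11 to 9.83 log2 in wild type and 8.80 to 9.56 in the knockout group (difference −0.26 on the log2 scale with SE 0.19; limma adjusted p = 0.479), and which part of the transcript it reads is not known, so the group is called knockout-labelled. Values are log2 expression values with array medians of 5.90 to 5.95, log2 fold changes were taken as knockout-labelled minus wild type throughout, and a gene is called when its limma p, adjusted over all 20748 rows with 1 symbol, is under 0.05.

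S-palmitoylation is a reversible thioester bond between a fatty acyl chain and a cysteine, and it helps to hold proteins at membranes and to route them between compartments. The Zdhhc enzymes are membrane proteins named after a conserved Asp-His-His-Cys motif. The cysteine of this motif takes up the acyl chain from acyl-CoA and passes it to the client protein, and thioesterases remove it. In fat cells the known clients include the fatty acid transporter CD36, the glucose transporter GLUT4 and caveolin-1.

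Zdhhc2 rose about 3-fold in the knockout-labelled tissue, and none of the other 9 genes was called. The 9 had log2 fold changes between −0.21 and 0.20 with a median of 0.01, and the median over all rows tested was −0.01. Called rows made up 7.40% of all rows tested, 3.81% higher and 3.59% lower, or 791 and 745 rows (914 and 593 with median centring), which stands beside the 1 call among 10 genes without bearing on it, since this comparison was known when the list was made.

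Zdhhc2 acts at the plasma membrane and on recycling endosomes, and its known clients include the scaffold PSD-95, the tetraspanins CD9 and CD151 and the membrane protein CKAP4. Its row (10571399) read 5.74, 6.23, 6.04 and 5.84 log2 in wild-type arrays 1 to 4 and 7.62, 7.50, 7.62 and 7.60 in knockout-labelled arrays 1 to 4. The 4 knockout-labelled arrays were all higher than the 4 wild-type arrays, and the gap between the nearest arrays of the groups was 1.27 log2, or 2.40-fold. The group means were 5.96 ± 0.22 and 7.58 ± 0.06 (SD, n = 4 each), which gives a log2 fold change of 1.62 (SE 0.10, 95% interval 1.41 to 1.83) and a 3.08-fold difference (2.65 to 3.57). The wild-type arrays covered a range of 0.49 log2 and the knockout-labelled arrays a range of 0.12. Among all 20748 rows, 12 had a log2 fold change at least as high, that of Zdhhc2 included.

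On the second principal component over all tested rows (14.7% of the variance), knockout-labelled arrays 1 and 2 lay at −12.8 and −10.7 and arrays 3 and 4 at 11.4 and 5.91, and Zdhhc2 read nearly the same in both pairs. The log2 fold change of Zdhhc2 was 1.60 with knockout-labelled arrays 1 and 2 alone and 1.65 with arrays 3 and 4 alone. The number of called rows was 701 with the former pair, 1822 with the latter and 1536 with all arrays. Such a count also depends on the spread within groups, so it is not comparable with a fold change. Leaving out each array in turn gave log2 fold changes of Zdhhc2 from 1.55 (without wild-type array 1) to 1.71 (without wild-type array 2), and its row was called in all 8 of these fits. The fits reuse the arrays that were in view when the list was made, so these calls are no separate support.

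**Figure D1:**
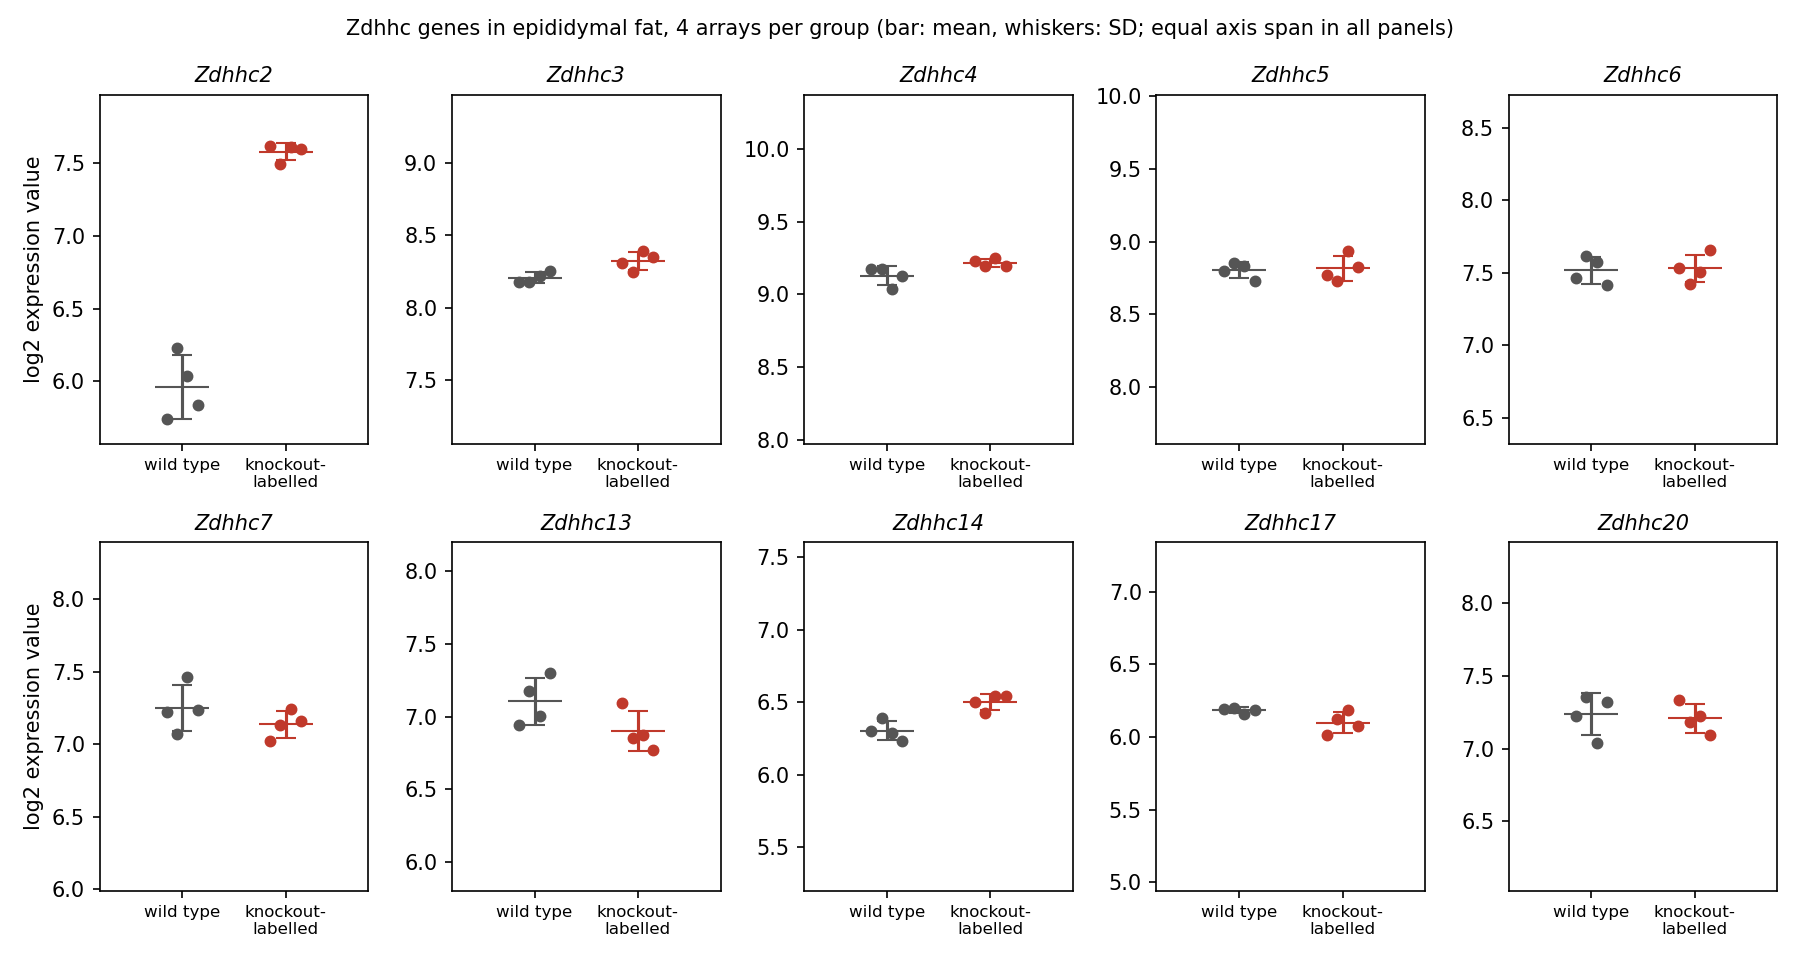
Log2 expression value (vertical axis) of each of the 10 Zdhhc genes in the 4 wild-type and 4 knockout-labelled arrays (points), with the group mean (bar) and SD (whiskers). Each panel is centred on its own gene and all have the same span, so the step of Zdhhc2, from 5.96 to 7.58, can be set against differences of at most 0.21 log2 in the other 9.

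The other plasma membrane enzymes of the list, Zdhhc5 and Zdhhc20, had log2 fold changes near 0. Zdhhc5, which palmitoylates CD36 at the cell surface of adipocytes, read 8.73 to 8.85 log2 in wild type and 8.73 to 8.93 in the knockout-labelled arrays, with a log2 fold change of 0.01 (SE 0.06, 95% interval −0.12 to 0.14). The groups overlapped, and the sign turned with quantile normalization (−0.0093). Zdhhc20, whose known clients include the EGF receptor, read 7.04 to 7.36 and 7.10 to 7.34, with a log2 fold change of −0.03 (SE 0.08, −0.21 to 0.15). It was the only one of the 10 genes with more than 1 row, and its 2 dimmer rows had log2 fold changes of 0.07 and 0.01.

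The enzymes of the Golgi, Zdhhc3, Zdhhc7 and Zdhhc4, showed small differences in both directions. Zdhhc3, a broadly active Golgi enzyme, read 8.18, 8.18, 8.22 and 8.25 log2 in wild type and 8.31, 8.25, 8.39 and 8.35 in the knockout-labelled arrays. Its log2 fold change was 0.12 (SE 0.05, 95% interval 0.0015 to 0.23), and the groups met at 8.25, where the lowest knockout-labelled array lay just under the highest wild-type array. Zdhhc7, its close relative, palmitoylates GLUT4 and steroid hormone receptors. It read 7.07 to 7.46 in wild type and 7.02 to 7.24 in the knockout-labelled arrays, with a log2 fold change of −0.11 (SE 0.08, −0.30 to 0.07) and overlapping groups.

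Zdhhc4, which palmitoylates CD36 in the Golgi, read 9.18, 9.17, 9.04 and 9.13 log2 in wild type and 9.23, 9.19, 9.25 and 9.20 in the knockout-labelled arrays. The groups did not overlap, but the gap was only 0.016 log2, and the log2 fold change was 0.09 (SE 0.05, 95% interval −0.03 to 0.20). CD36 itself, the client shared by Zdhhc4 and Zdhhc5, was named after its values were seen and read 12.39 to 12.54 and 12.37 to 12.47 (Cd36, log2 fold change −0.01, SE 0.05, limma adjusted p = 0.920).

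Zdhhc6 works in the endoplasmic reticulum, where it palmitoylates the chaperone calnexin together with its cofactor selenoprotein K. Its row read 7.42 to 7.62 log2 in wild type and 7.43 to 7.66 in the knockout-labelled arrays, a log2 fold change of 0.01 (SE 0.07, 95% interval −0.14 to 0.16) whose sign turned when single arrays were left out (−0.0312 to 0.0461). The rows of its client and cofactor, Canx (−0.04, SE 0.06, limma adjusted p = 0.716) and Selenok (−0.09, SE 0.09, 0.626), named after their values were seen, did not pass either.

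Zdhhc13 and Zdhhc17 are the members with ankyrin repeats and are known as partners of huntingtin, and both had log2 fold changes below 0. Zdhhc13 read 6.94, 7.18, 7.00 and 7.30 log2 in wild type and 7.10, 6.86, 6.87 and 6.77 in the knockout-labelled arrays. The group means were 7.11 ± 0.16 and 6.90 ± 0.14 (SD, n = 4 each), and the log2 fold change was −0.21 (SE 0.09, 95% interval −0.41 to −0.0023), the lowest of the 10. Knockout-labelled array 1 lay above 2 of the wild-type arrays, so the groups overlapped. Zdhhc17 read 6.16 to 6.20 in wild type and 6.01 to 6.18 in the knockout-labelled arrays, a log2 fold change of −0.09 (SE 0.05, −0.20 to 0.03).

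Zdhhc14, which palmitoylates the scaffold PSD-93 in neurons, had the highest log2 fold change of the 9 genes that were not called. It read 6.31, 6.39, 6.29 and 6.23 log2 in wild type and 6.50, 6.42, 6.55 and 6.54 in the knockout-labelled arrays. The groups did not overlap, with a gap of 0.029 log2, and the means were 6.30 ± 0.07 and 6.50 ± 0.06 (SD, n = 4 each). The log2 fold change was 0.20 (SE 0.06, 95% interval 0.07 to 0.32), a 1.15-fold difference. The row was not called with the deposited scaling or in any of the 8 fits with an array left out, and it was called with quantile normalization (0.22), with median centring (0.22) and with the dimmest 33.3% of rows left out.

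For 3 of the 10 genes, Zdhhc2, Zdhhc4 and Zdhhc14, the 4 arrays of each group did not overlap, and all 3 were higher in the knockout-labelled arrays. Rows without overlap made up 15.3% of all rows tested, 7.18% higher and 8.16% lower. The gap of Zdhhc2, 1.27 log2, compares with 0.016 for Zdhhc4 and 0.029 for Zdhhc14. The pooled SD within groups of the 9 genes other than Zdhhc2 ranged from 0.05 to 0.15 log2, and the median over all rows was 0.10. The mean over these 9 genes lay between 7.50 and 7.56 log2 in the wild-type arrays and between 7.48 and 7.57 in the knockout-labelled arrays, and these ranges overlapped. The 95% intervals of the 9 reached no further from 0 than 0.41 log2, or 1.33-fold.

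Among the 14 Zdhhc genes outside the list, 0 were called by limma, and 5 had an unadjusted p under 0.05, which 21.9% of all rows tested had. Of these 5, Zdhhc15, Zdhhc22 and Zdhhc9 were higher and Zdhhc18 and Zdhhc16 lower. Their log2 fold changes ran from −0.20 to 0.28 with a median of −0.02, 7 above 0 and 7 below. The largest was that of Zdhhc15, an enzyme close in sequence to Zdhhc2 and Zdhhc20 and known for palmitoylating the sorting receptor sortilin. It read 5.53, 5.66, 5.45 and 5.27 log2 in wild type and 5.92, 5.66, 5.64 and 5.80 in the knockout-labelled arrays (0.28, SE 0.09, limma adjusted p = 0.0982). The groups overlapped in Zdhhc15. The brighter row of Zdhhc22 followed with 0.26 (SE 0.08, limma adjusted p = 0.0721, and 0.0306 without wild-type array 2), while its dimmer row was at −0.01. Zdhhc9, which palmitoylates Ras proteins, had the smallest adjusted p of the 14 (0.0568) at a log2 fold change of 0.20 (SE 0.05), and its groups did not overlap. The groups did not overlap either in Zdhhc18 (−0.20, SE 0.06, limma adjusted p = 0.0819) and Zdhhc16 (−0.17, SE 0.06, 0.134), which lay lower in all 4 knockout-labelled arrays. Zdhhc9, Zdhhc18 and Zdhhc16 were named after their values were seen.

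**Figure D2:**
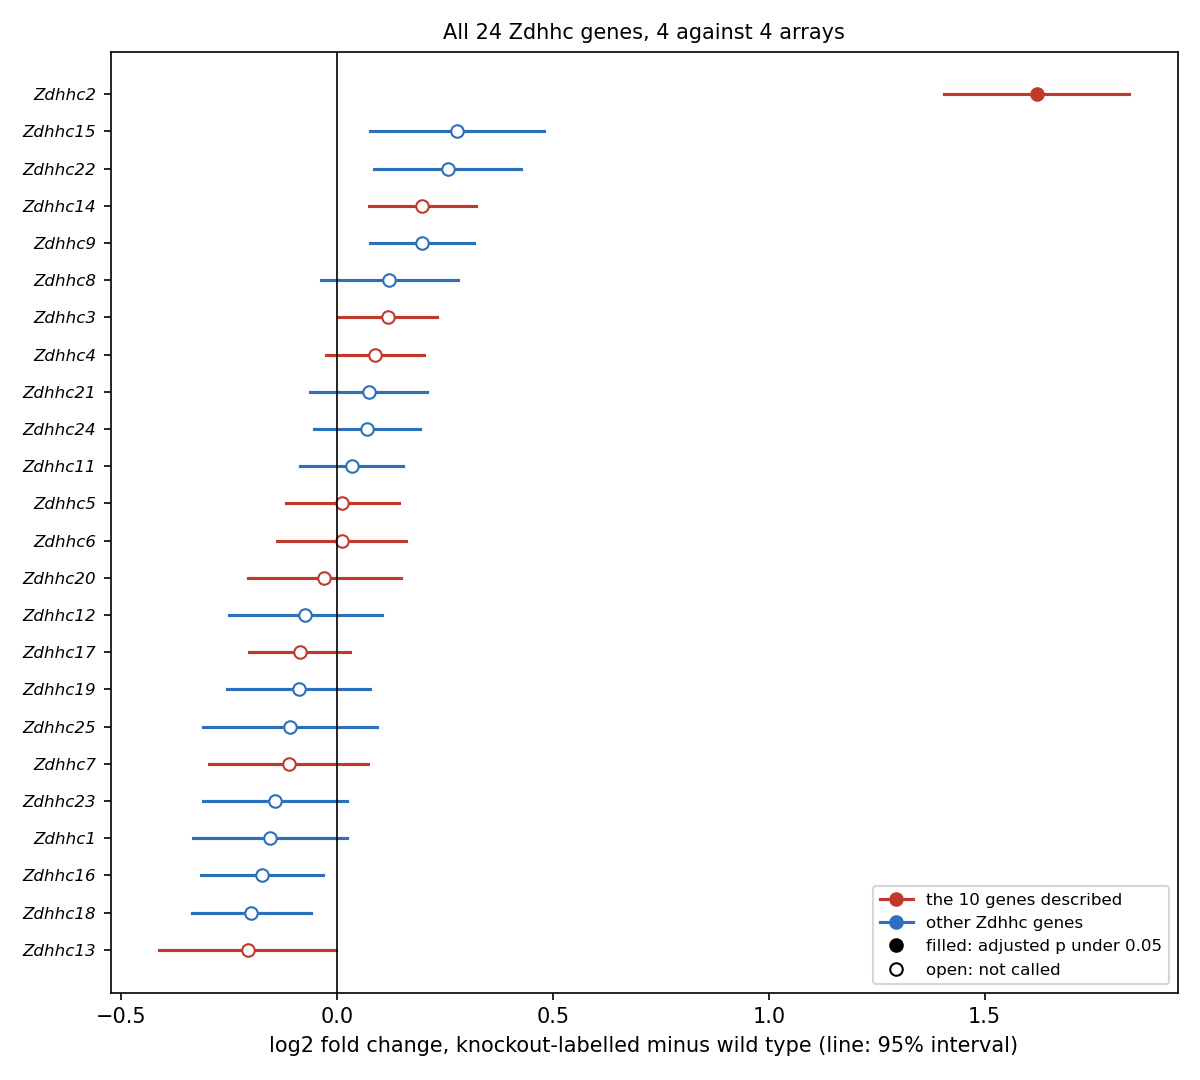
Log2 fold change of all 24 Zdhhc genes (horizontal axis, knockout-labelled minus wild type) with 95% intervals, the 10 listed genes in red and the 14 others in blue, and filled points for genes called by limma. Zdhhc2 stands at 1.62, and the other 23 genes lie between −0.21 and 0.28.

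Genes that work with the Zdhhc enzymes were read from lists of textbook members. Of 8 thioesterases that remove palmitate, 1 was called higher and 0 lower, beside 7.40% of all rows tested called in either direction. Their median log2 fold change was 0.04. In 4 of the 8 the groups did not overlap, 3 higher and 1 lower, beside 15.3% of all rows tested. The lower one was Lypla2 (−0.12, SE 0.05, limma adjusted p = 0.224). Ppt1 (0.22, SE 0.06, 0.0602) and Ppt2 (0.12, SE 0.06, 0.232) were higher. These 3, named after their values were seen, were not called. Lypla1, which encodes acyl-protein thioesterase 1, read 9.12, 9.18, 8.98 and 9.09 log2 in wild type and 9.42, 9.24, 9.41 and 9.33 in the knockout-labelled arrays. All 4 knockout-labelled arrays lay above all wild-type arrays, which gave 0.26 as the log2 fold change (SE 0.06; limma adjusted p = 0.0346). The call was lost when array 1, 3 or 4 of either group was left out (adjusted p 0.0620 to 0.0896). It was lost as well with knockout-labelled arrays 1 and 2 alone (0.178) or 3 and 4 alone (0.0542).

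None of the 3 accessory genes, Golga7, Golga7b and Selenok, was called by limma. The same held for 5 genes listed under other protein acyltransferases and their relatives. Of these, Nmt1, Nmt2, Porcn and Hhat attach myristate or act on Wnt and Hedgehog ligands, and Hhatl is a gene similar to Hhat. The medians of the accessory genes and of these 5 were −0.07 and −0.01. By limma, 0 of the 8 genes had an unadjusted p under 0.05, which 21.9% of all rows tested had.

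Of 25 measured genes for proteins known to be palmitoylated, 1 was called higher and 1 lower, beside 7.40% of all rows tested called in either direction. The median log2 fold change of the 25 was −0.01. Tfrc, named after its values were seen, was at −0.56 (SE 0.15, limma adjusted p = 0.0511). It did not pass, and its groups overlapped. Esr1, the estrogen receptor alpha gene, whose product is a client of Zdhhc7, read 8.78, 8.61, 8.71 and 8.79 log2 in wild type and 8.04, 7.90, 7.75 and 7.80 in the knockout-labelled arrays. It fell in all 4 knockout-labelled arrays relative to every wild-type array, with a log2 fold change of −0.85 (SE 0.07, limma adjusted p = 0.000177; 6.31e-05 to 0.00245 over the alternatives). The death receptor gene Fas, another Zdhhc7 client, read 6.46, 6.81, 6.63 and 6.46 in wild type and 7.03, 7.08, 7.00 and 7.02 in the knockout-labelled arrays, again without overlap. The difference was 0.44 log2 (SE 0.08; limma adjusted p = 0.00810), and its call was lost with knockout-labelled arrays 1 and 2 alone (0.0525). Slc2a4, the gene of the Zdhhc7 client GLUT4, was named after its values were seen. It lay at −0.15 with overlapping groups, and limma did not call it (adjusted p = 0.281). Any other Zdhhc7 client in the list was among the 23 genes not called. Whether Zdhhc7 clients differ as a set was not tested.

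Of the clients of Zdhhc2, 4 were measured in the list of palmitoylated proteins, and none of the 4, named after their values were seen, passed in the fit as reported. Their log2 fold changes were 0.07 for Ckap4 (SE 0.08, limma adjusted p = 0.647), 0.01 for Cd9 (SE 0.08, 0.968), 0.07 for Cd151 (SE 0.05, 0.445) and 0.25 for the membrane fusion gene Snap23 (SE 0.07, 0.0526). In Snap23 all 4 knockout-labelled arrays were higher than the wild-type arrays, with a gap of 0.052 log2. Of all rows tested, 7.18% were without overlap in this direction. Palmitoylation of the proteins was not measured.

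**Figure D3:**
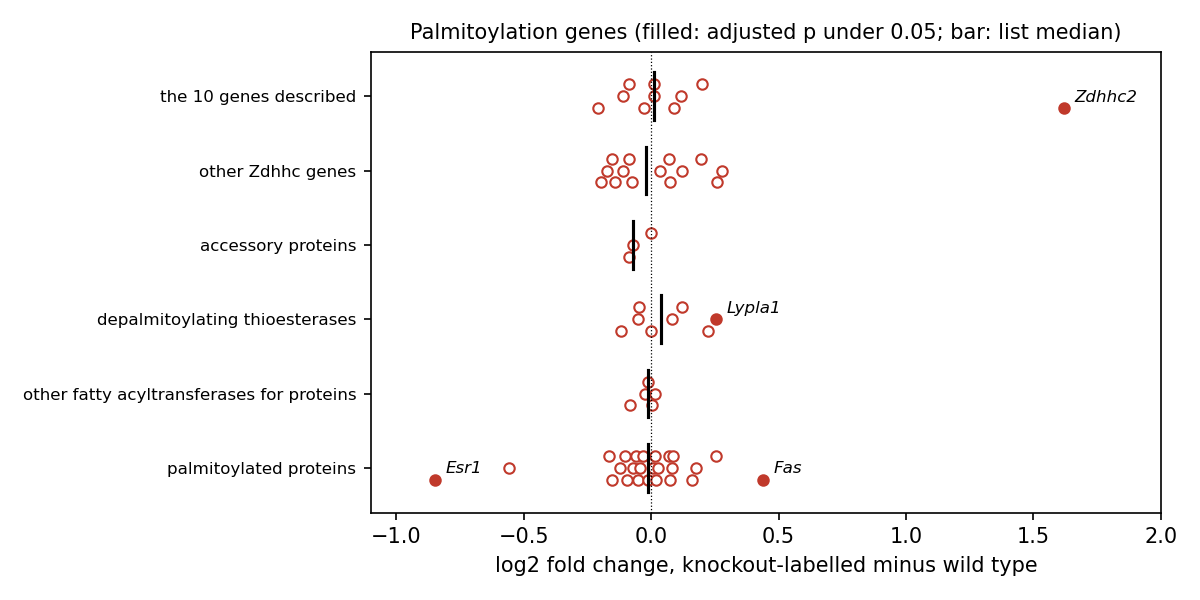
Log2 fold change (horizontal axis) of each measured gene in the 10 listed Zdhhc genes, the other Zdhhc genes and 4 lists of related genes (vertical axis), with the list median as a bar and filled, named points for genes called by limma. The medians lie between −0.07 and 0.04, and the 4 called genes are Zdhhc2, Lypla1, Fas and Esr1.

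The rows whose course over the 8 arrays was most like that of Zdhhc2 were those of the clock gene Arntl, the collagen crosslinking gene Lox, the amino acid transporter gene Slc7a8, the endosomal gene Ehd3 and the lysyl oxidase relative Loxl4. Likeness was measured as the root mean square difference after each row was centred on its own mean, and it was 0.185, 0.198, 0.211, 0.231 and 0.239 log2 in that order. With 4 arrays in each of 2 groups, this measure mostly picks rows with a log2 fold change of similar size, here 1.31 to 1.85. Single rows were compared here, and a brighter row of Loxl4 had a log2 fold change of 1.22 (SE 0.08). The 6 nearest protein-coding genes on the array around Zdhhc2, 3 on each side by gene order in the GRCm38.p6 table (Msr1, Fgf20, Micu3, Cnot7, Vps37a and Mtmr7), had log2 fold changes of −0.04 to 0.14, and limma called 0 of them.

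Markers of the labelled tissue were bright, and some markers of other cell types moved with the groups. The 8 mature adipocyte markers, among them Adipoq and Plin1, had row means of 11.5 to 12.8 log2, and the 5 measured markers of epididymal epithelium had row means of 3.24 to 5.08. Over 11 marker lists, 12 of 57 measured markers were called higher and 3 lower, with log2 fold changes from −0.43 to 0.99. The shares called over all rows tested were 3.81% higher and 3.59% lower. With single arrays left out, 8 to 12 of the markers were called higher and 1 to 4 lower. The 3 lower ones were the macrophage marker Cd14 (−0.38), the smooth muscle marker Tagln (−0.29) and the skeletal muscle marker Actn3 (−0.43). The other 5 of 6 macrophage markers lay above 0 (0.05 to 0.28), and none of them was called. Of 4 skeletal muscle markers 3 were below 0, while Acta1 was at 0.77 (limma adjusted p = 0.0971). The groups overlapped in Actn3. With single arrays left out, its call held only without wild-type array 1 or knockout-labelled array 2. Progenitor and fibroblast markers had 5 called higher of 9, Mfap5 (0.84) and Col1a1 (0.71) among them, and the mean over the list was 8.04 to 8.42 log2 in the wild-type arrays and 8.56 to 8.78 in the knockout-labelled arrays. Only 2 of them were called when knockout-labelled array 3 or 4, or array 2 or 3 of the wild type, was left out, and 3 without wild-type array 4. Endothelial markers had 2 called higher of 6 (Cldn5 0.99 and Pecam1 0.20; 1 when any array other than knockout-labelled array 2 was left out), with list means of 8.49 to 8.74 and 8.78 to 9.00. Smooth muscle and pericyte markers went both ways, with Acta2 (0.89) and Rgs5 (0.66) called higher, the other 3 of 5 below 0 and a median of −0.02, and the call of Tagln held only without knockout-labelled array 1 or 2 among the 8 fits with an array left out. Their list means were 7.63 to 7.89 and 7.81 to 8.06. Of 8 mature adipocyte markers only Lep (0.75) was called, 5 were below 0 and the median was −0.06, with list means of 12.02 to 12.15 and 12.12 to 12.19. Plin1 (−0.20, limma adjusted p = 0.0529) and Lipe (−0.15, 0.141) did not pass and lay lower in all 4 knockout-labelled arrays. The mesothelial marker Msln (0.60) and the nerve marker Uchl1 (0.52) were called higher, also with each array left out, and the other 4 of 5 mesothelial markers were below 0. The other of 2 measured nerve markers, Tubb3, was at −0.02 (limma adjusted p = 0.949). The part of these markers in the difference of Zdhhc2 was not tested. In RNA from whole tissue, fewer cells of a type and less RNA per cell cannot be told apart.

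**Figure D4:**
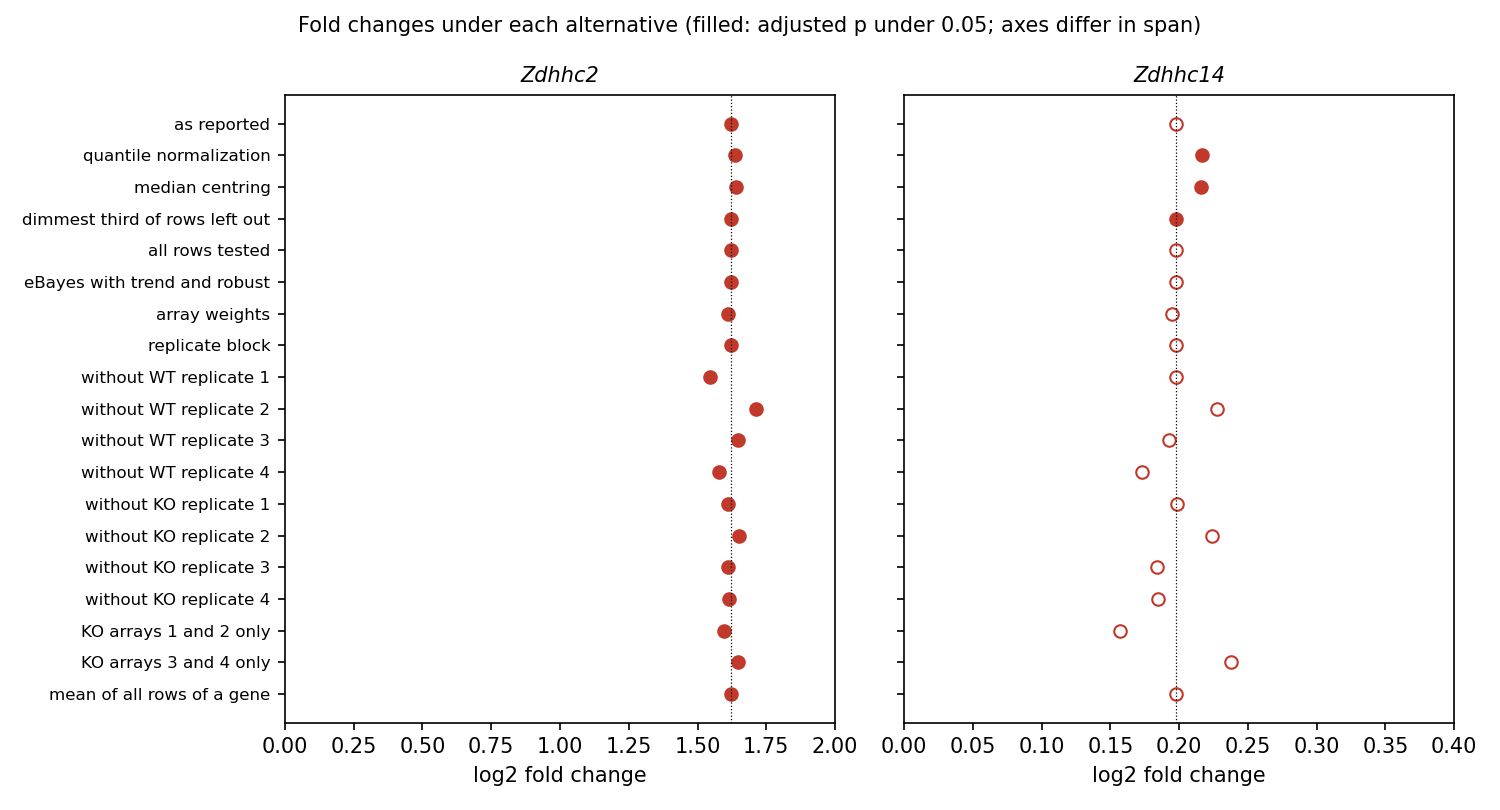
Log2 fold change of Zdhhc2 (left) and Zdhhc14 (right) as reported and under each alternative (vertical axis), filled where the row was called at an adjusted p under 0.05 and with the reported value as a dotted line. Zdhhc2 stayed between 1.55 and 1.71 and called in all 18 alternatives, and Zdhhc14 stayed between 0.16 and 0.24 and was called in 3 of them. The alternatives reuse the arrays that were in view when the list was made.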

How the data were processed

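The authors deposited log2 expression values, 1 per array row and sample, of a whole-transcript Affymetrix mouse array. Per the submitters' processing notes the tool affy was used; background correction, normalization, summarization and filters are not given in the sources used here. Such scaling shows changes relative to the bulk of rows. Of 23346 rows, 20748 had exactly 1 gene symbol in the platform annotation, and these were tested. No scanner intensities were used, so dim rows have no background bound, and 4 arrays per group limit the precision.

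The 2 groups were compared by a linear model in limma 3.58.1, run under R 4.3.3 (moderated by eBayes, no covariate, two-sided, Benjamini-Hochberg adjustment over the 20748 rows, called under 0.05). SE and 95% intervals come from this fit, whose calls and fold changes were tested on simulated data. The 10 genes, the lists and the split of knockout-labelled arrays into pairs were chosen with earlier results of these data known. Named were the 10 genes, Nr1d1, called genes of the other lists, the other Zdhhc genes with the 2 largest changes where none was called, up to 2 called markers per list with the smallest p, and the 5 rows most like Zdhhc2 without predicted genes. Alternatives were quantile normalization, median centring, a filter on dim rows, all rows tested, a trended and robust eBayes, array weights, a replicate block, each array left out, pairs of knockout-labelled arrays, the mean of a gene's rows, an adjusted p under 0.10 and a 1.5-fold minimum.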

Additional observations from a re-analysis of the deposited data

Results flagged for a closer look

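In 3 of the 72 groups of 4 arrays checked (36 named genes in 2 groups), 1 array lay farther from the others than Dixon's 95% critical value allows, a rate at which chance marks about 1 group in 20. All 3 concern knockout-labelled array 2. Zdhhc2 read 7.50 log2 in it against 7.60 to 7.62 in the other knockout-labelled arrays, a small distance beside the group difference of 1.62. The clock gene Arntl read 6.65 against 6.94 to 6.95, and the muscle marker gene Actn3 read 6.08 against 5.70 to 5.74. Without this array the log2 fold change of Zdhhc2 was 1.65.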

How the results depend on the processing

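Zdhhc2 kept its direction and its call in all 18 alternatives (log2 fold change 1.55 to 1.71, both ends reached with single arrays left out), and Esr1 did so too. All alternatives reuse the arrays whose values were in view when the genes were chosen, so a kept call is no separate support. The number of called genes among the 10 was 2 with quantile normalization, with median centring and with the dimmest 33.3% of rows left out, where Zdhhc14 joined Zdhhc2, and 1 in each fit with an array left out. Called genes in the other palmitoylation lists numbered 3 as reported, 5 with median centring, array weights or the mean of a gene's rows, 6 with trend and robust eBayes, 7 without the dimmest rows and 2 to 4 with single arrays left out. Called rows over the whole table numbered 1536 as reported, 913 to 1418 with single arrays left out, among them 972 without wild-type array 3, 1004 without wild-type array 4 and 913 when knockout-labelled array 4 was absent. They numbered 701 with knockout-labelled arrays 1 and 2 only, 2552 at an adjusted p under 0.10 and 326 with a 1.5-fold minimum. Genes near 0 changed sign. Zdhhc5 was at −0.0093 with quantile normalization, −0.0523 with knockout-labelled arrays 1 and 2 only and −0.0266 to 0.0408 with single arrays left out. Zdhhc6 was at −0.0414 with arrays 1 and 2 only and −0.0312 to 0.0461 with single arrays left out. Zdhhc20 was at 0.0201 with arrays 1 and 2 only, 0.0177 as the mean of its rows and −0.0953 to 0.0112 with single arrays left out. The cause of these shifts was not tested; fits with arrays or rows left out hold fewer of them by construction. Correlations between same-numbered arrays of their deviations from the group means were −0.0342, 0.134, −0.00148 and −0.0674. These values cannot settle whether same-numbered samples were handled as pairs. With the replicate block the log2 fold change of Zdhhc2 was 1.62 and stayed called, and the call of Lypla1 was lost (limma adjusted p = 0.0910). The median over all rows stayed between −0.0106 and −0.0028 with single arrays left out and was 0.0117 with median centring.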
